A study of Mus musculus with 6 samples.

Results

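The mouse genome carries a large family of genes named Zfp followed by a number, most of which code for C2H2 zinc finger proteins. The open chromatin peaks at these genes were examined in the small intestinal crypt. Of 123510 MACS peaks in the series, 61914 carried the name of a gene, and 688 of these carried a Zfp name with a number and at most one further letter. The 688 peaks belonged to 311 Zfp genes. The rule used the name alone and no measured value, though it was set with earlier results of these data known. The other 61226 named peaks served for comparison.

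ATAC-seq, which reads out accessible DNA by where a transposase inserts adaptors, was performed on whole crypt nuclei of C57BL/6 mice, with 3 wild type libraries (WT) and 3 libraries from mice with a Vil-Cre mediated KO of Smarcad1 (KO), each made from 50000 cells. Smarcad1 is a chromatin remodeler linked to heterochromatin, and Villin drives Cre in the intestinal epithelium, so immune and stromal cells left in the crypt fraction kept the gene. Cre removes exons 12 to 14, and 0 peaks overlapped these exons, so that the data could not check the deletion. The age of the mice and whether each library came from its own mouse were not given in the labels, and the p-values then measure the spread between these libraries, which may be technical in part. The libraries held 4339306 to 16301164 reads in peaks. Values are log2 normalized reads per peak, not scaled for the width of the peak, and coordinates are those of GRCm38.

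C2H2 fingers are small folds held by a zinc ion, each of which can contact a few bases of DNA, and long arrays of them can recognise long sites. Many Zfp genes also code for a KRAB domain, which recruits Trim28 (KAP1) and through it Setdb1 and HP1 proteins, so that the bound DNA becomes packed with methylated histone H3. KRAB zinc finger genes are known for silencing retroelements and for keeping imprints. They arose by repeated duplication and lie in clusters of related genes. Zfp genes without a KRAB domain include general transcription factors, regulators of development and a few proteins that bind RNA or act on other proteins.

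Sequences are shown for the strongest peak, for the peak with the smallest unadjusted p in each direction, and for 3 start peaks of the cluster with the most genes. The first 3 are on the plus strand of GRCm38, and their capitals mark matches on either strand to one of 7 short words, namely CCGGAAG (the core of ETS factor sites), GGGCGG (the GC box of Sp and KLF factors), GCGCATG (part of the NRF1 site), ACTACAA (part of the site of ZNF143), AAGATGG (part of the YY1 site), CCAAT (NF-Y) and GAGAAACC (which codes for part of the linker between C2H2 fingers). The centre of the Zfp91 peak lay in an annotated UTR, so the nearest 300 bases of the peak outside UTRs and coding exons are given (chr19:12796299-12796598). The Zfp507 stretch lies outside the gene (chr7:35770201-35770500, the whole peak), holds none of the 7 words and is in lower case throughout. The Zfp326 stretch lies in an intron (chr5:105911926-105912225).
Zfp91: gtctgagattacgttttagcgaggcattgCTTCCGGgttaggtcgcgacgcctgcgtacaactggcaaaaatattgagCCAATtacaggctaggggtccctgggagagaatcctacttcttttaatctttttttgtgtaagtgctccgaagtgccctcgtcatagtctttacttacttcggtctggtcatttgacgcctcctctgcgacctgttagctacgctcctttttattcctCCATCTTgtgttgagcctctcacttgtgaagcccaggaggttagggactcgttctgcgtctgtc
Zfp507: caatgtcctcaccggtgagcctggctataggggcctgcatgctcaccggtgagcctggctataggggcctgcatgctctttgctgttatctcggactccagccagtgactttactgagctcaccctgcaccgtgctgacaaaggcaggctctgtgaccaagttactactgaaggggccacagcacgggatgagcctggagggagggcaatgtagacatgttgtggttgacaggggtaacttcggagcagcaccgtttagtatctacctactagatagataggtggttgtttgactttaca
Zfp326: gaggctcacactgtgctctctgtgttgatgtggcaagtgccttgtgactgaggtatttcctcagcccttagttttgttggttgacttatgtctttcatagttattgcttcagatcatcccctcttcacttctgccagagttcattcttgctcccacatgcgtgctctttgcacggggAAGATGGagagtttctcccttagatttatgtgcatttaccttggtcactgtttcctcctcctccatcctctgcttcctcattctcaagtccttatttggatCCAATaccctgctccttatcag

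The 3 start peaks of the chromosome 13 cluster are shown on the strand of their gene, 100 bases each. Capitals mark a run of 16 bases that the central windows of all 3 peaks share, found after the sequences were seen. The Zfp712 stretch is chr13:67060970-67061069, the Zfp708 stretch chr13:67081357-67081456 and the Zfp273 stretch chr13:67813890-67813989.
Zfp712: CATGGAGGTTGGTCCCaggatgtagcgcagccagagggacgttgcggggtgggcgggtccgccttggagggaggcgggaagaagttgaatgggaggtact
Zfp708: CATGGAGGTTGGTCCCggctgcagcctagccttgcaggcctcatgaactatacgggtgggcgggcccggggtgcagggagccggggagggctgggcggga
Zfp273: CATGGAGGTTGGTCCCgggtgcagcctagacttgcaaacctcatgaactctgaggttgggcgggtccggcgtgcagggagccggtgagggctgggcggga

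In each of these genes the run begins 1 base before the annotated start codon and crosses the end of a first coding exon of 6 bases into the intron. The run occurs 4 times on the assembled chromosomes, counted on both strands. It was in the central 300 bases of 3 of the 17 start peaks of the cluster, and of 0 of 154 other KRAB start peaks, 0 of 141 start peaks of C2H2 genes without KRAB and 0 of 15819 start peaks of other named genes. The run was defined from these 3 peaks and has only 4 copies, so the counts of 0 were nearly fixed in advance and are no support. Past the run, 73 of the next 84 bases were identical without gaps between Zfp708 and Zfp273, and 20 of 84 between Zfp712 and either of them.

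Zfp peaks sat at gene starts more often than other named peaks did. Of the 686 Zfp peaks whose gene was found in the annotation, 318 (46.4%) lay within 1 kb of a start of their own gene, against 26.2% of the other named peaks. A further 253 (36.9%) lay in introns, 65 outside the gene and 50 in exons. The share at starts was higher for the KRAB genes. Peaks of KRAB C2H2 genes numbered 255, of which 67.1% were at a start and 16.1% in an intron. Peaks of C2H2 genes without KRAB numbered 413, of which 34.1% were at a start and 50.1% in an intron, closer to the other named peaks with 54.1% in introns.

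KRAB genes had few peaks each. The 166 KRAB C2H2 genes had a mean of 1.54 peaks, and 101 of them had a single one. The 134 C2H2 genes without KRAB had a mean of 3.08 peaks, with up to 21 at Zfp407. After Zfp407 came Zfp385b with 20, Zfp827 with 16 and Zfp704 with 15 peaks, followed by 4 genes with 11 each (Zfp608, Zfp644, Zfp710 and Zfp804a). The search of the annotated coding sequences found no KRAB domain in any of these genes. In Zfp407, 19 of the 21 peaks were intronic, with WT values from 4.66 to 8.55. The 11 peaks of Zfp804a were all intronic and weak, with WT values from 4.49 to 5.57, and none lay at its start.

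Few peaks lay in last coding exons, 20 of the 686 Zfp peaks (2.92%) and 1.96% of the other named peaks. In KRAB genes the fingers are usually coded by the last coding exon, and 5 of the 255 KRAB peaks (1.96%) lay there, at Zfp9, Zfp108, Zfp961, Zfp369 and Zfp707. C2H2 genes without KRAB had 13 of 413 peaks (3.15%) in the last coding exon. The strongest of all 20 such peaks was at Zfp771 with a WT mean of 9.05. The linker word GAGAAACC was in 2 of the 20 windows (10.0%), against 1.77% of 1184 last exon peaks of other named genes.

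**Figure D1:**
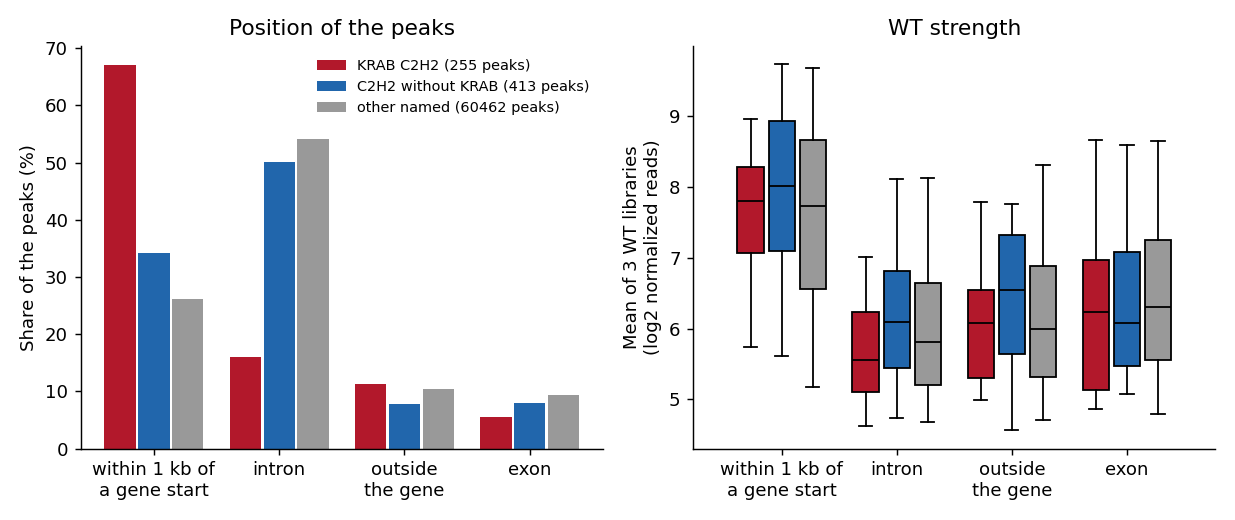
Left, share of peaks (%) by position for KRAB C2H2 genes, C2H2 genes without KRAB and other named genes found in the annotation. Right, WT strength as the mean of 3 WT libraries (log2 normalized reads, boxes from the lower to the upper quartile with the median, whiskers from the 5th to the 95th percentile), in which start peaks are the strongest in each of the 3 sets, with medians of 7.80, 8.01 and 7.74.

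In WT crypts the median Zfp peak was stronger than the median of the other named peaks, 6.89 against 6.22 on the log2 scale. The Zfp medians were 6.95, 6.65 and 7.18 in WT1, WT2 and WT3, and those of the other named peaks 6.26, 6.05 and 6.41. The order was thus the same in every WT library. Within one position the gap was smaller than this. At starts the medians were 7.87 and 7.74, in introns 6.04 and 5.81, and in last coding exons 6.01 and 6.46, the last of these from only 20 Zfp peaks. Zfp peaks had a median width of 1050 bp against 900 bp, and per kb of peak width the log2 medians were 6.78 and 6.53.

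The strongest Zfp peaks were at genes without KRAB. The peak at Zfp91 (chr19:12794101-12797400), which codes for an atypical ubiquitin ligase, had 10.59, 10.10 and 10.95 in WT and 10.69, 10.05 and 11.21 in KO. Zfp687 (chr3:95013901-95017050) followed with a WT mean of 10.45 ± 0.25 (SD, n = 3), then Zfp238, also known as Zbtb18, a repressor best known from neurons, with 10.22 ± 0.64, Zfp277 with 10.17 ± 0.57, Zfp36, which codes for the mRNA decay factor tristetraprolin and has no C2H2 finger, with 10.04 ± 0.25, and Zfp367 with 10.04 ± 0.46. All 6 lay at a gene start. The WT and KO values overlapped at each of them, and the log2 fold changes ran from -0.07 at Zfp238 to 0.11 at Zfp91. The weakest were intronic peaks of Zfp143 (WT mean 4.41), Zfp366 (4.42) and Zfp229 (4.47), with 5 to 36 reads per library.

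Start peaks of the Zfp classes differed in base composition. In the central 300 bases of KRAB start peaks the median GC content was 57.7% and the median observed to expected ratio of CpG 0.64, against 66.3% and 0.81 at C2H2 genes without KRAB, and 59.7% and 0.64 at other named genes. The word ACTACAA was in 15 of 171 KRAB start peaks (8.77%), in 3 of 141 start peaks of C2H2 genes without KRAB (2.13%) and in 2.45% of other named start peaks. The ETS word CCGGAAG was in 24 of 171, 27 of 141 (19.1%) and 9.32% in the same order, and the GC box GGGCGG in 39.2%, 54.6% and 44.4%. These counts describe letters in a window and were not tested. For 199 KRAB C2H2 genes a RefSeq promoter (250 bases before to 50 after the start, GRCm38.p6) was at hand, and 24.6% of these held CCGGAAG and 53.8% CCAAT, against 9.12% and 37.9% of all 27025 promoters. In the start peaks themselves CCAAT was at 27.5% of those of KRAB genes and 28.5% of those of other named genes. In the promoters the word ACTACAA was at 6.53% of KRAB genes, 6.14% of the 114 C2H2 genes without KRAB and 3.45% of all genes, so that the gap between the classes seen in the start peaks was not seen there.

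Not every KRAB gene had a peak at its start. The annotation held 231 protein-coding KRAB C2H2 genes with a Zfp name, and 196 of them (84.8%) had a peak of any name within 1 kb of a start, as had 132 of the 147 C2H2 genes without KRAB (89.8%). Among the KRAB genes with a RefSeq promoter, the 171 with a peak had a median CpG ratio of 0.57 and the 28 without one 0.34. A gene without a peak here is a gene for which none was called at this depth. Reads from near-identical gene copies may also have been lost, since the authors imported reads with a mapping quality cutoff. The median Zfp peak had 0.37% of its 31-base words elsewhere in the genome, and KRAB peaks 2.05%. In 75 of the 255 KRAB peaks over 10% of the words recurred elsewhere, and the values of those peaks are less certain.

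Zfp genes with a peak were concentrated on few chromosomes. Chromosome 7 alone held 131 of the 688 Zfp peaks (19.0%) at 77 genes, against 5.93% of the other named peaks. Chromosome 17 held 57 peaks at 35 genes, 50 of the peaks at KRAB C2H2 genes. Chromosome 2 held 69 peaks at only 17 genes, and chromosome 10 and chromosome 19 held 2 peaks each.

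Runs of at least 5 Zfp genes with a peak, each within 500 kb of the next, formed 14 clusters. They held 127 gene identifiers (40.7%) and 193 peaks, and 78.7% of the genes in them were KRAB C2H2 genes, against 36.2% outside. The cluster with the most genes, from Zfp712 to Zfp273 on chromosome 13 (67038596 to 67827002), held 19 genes and 23 peaks, 17 of them at a start. All 23 annotated Zfp genes inside this span had a peak of any name at the start. The cluster of 18 genes on chromosome 17 from Zfp160 to Zfp13 also had a start peak at each annotated gene, while 3 of the 13 annotated genes between Zfp871 and Zfp414 on the same chromosome had no start peak. The start peaks inside and outside clusters were of like strength, with WT medians of 7.86 and 7.90. The cluster with the highest median over all its peaks was Zfp606 to Zfp446 on chromosome 7, with 8.20, and that with the lowest was Zfp936 to Zfp819 on the same chromosome, with 6.56.

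The KO was then compared with WT to ask whether loss of Smarcad1 changes accessibility at these genes. The test used here was limma. With edgeR, a different test, the paper reports sites of changed accessibility in this tissue, mostly gains in KO. None of the 688 Zfp peaks was called by limma at a Benjamini-Hochberg adjusted p below 0.05, where 0% of all 123510 peaks were called, and every Zfp peak had an adjusted p of 1. At an unadjusted p below 0.05 there were 8 Zfp peaks (1.16%), against 2.28% of all peaks. Of the 8, 6 were lower and 2 higher in KO. Among all peaks 1123 of the 2821 with such a p were higher in KO, and among other named peaks 589 of 1173. A count of 8 is too small to read a direction from. Of the 8 Zfp peaks 7 lay away from a gene start. Away from starts this was 1.90% of Zfp peaks and 2.31% of other named peaks, and at starts 0.31% and 0.76%. Few start peaks with such a p were thus seen in both sets. A log2 fold change of more than 0.5 in either direction was seen in 31 Zfp peaks (4.51%), against 6.37% of the other named peaks, and no Zfp peak exceeded 1.

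The values of KO and WT seldom separated. Each KO value exceeded each WT value in 11 Zfp peaks (1.60%), where the share was 2.70% of all peaks and 2.83% of other named peaks. The reverse, with each KO value under each WT value, held for 11 further Zfp peaks (1.60%), against 4.10% of all peaks and 2.81% of other named peaks. When the other named peaks were weighted to the same strengths as the Zfp peaks, these shares became 2.37% above and 2.17% below. Only 3 of the 22 separated Zfp peaks lay at a start, at Zfp870, Zfp296 and Zfp523, which were named after their values were seen. At starts 0.31% of Zfp peaks were separated above and 0.63% below. Separation was rarer at starts among other named peaks too, with 1.80% above and 1.24% below, against 3.20% and 3.33% away from a start. The count of separated peaks rose from 22 (3.20%, against 6.80% of all peaks) to 37 (5.38% against 7.70%) when libraries were scaled with trimmed means of M values and to 48 (6.98% against 8.11%) with quantile normalization. It was between 35 and 88 (5.09% to 12.8%) when a library was left out, against 11.2% to 20.7% of all peaks.

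How large a change could have been missed is given by the intervals. The 95% interval of the log2 fold change reached a median of 0.70 to either side over the Zfp peaks, and it lay inside -1 to 1 in 549 of them (79.8%). The intervals of the others reached past these bounds, so that a change of this size was not excluded by the interval there. At starts the interval lay inside these bounds in 267 of 318 peaks. Because crypt cells were measured in bulk, fewer cells with an open site and less opening per cell cannot be told apart.

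Set against named peaks of equal strength, Zfp peaks showed nearly the same difference. Named peaks were sorted into 10 bins of equal size by their mean over all 6 libraries, and 455 of the Zfp peaks (66.1%) fell into the upper 5 bins. The median log2 fold change of the Zfp peaks was 0.02, with quartiles at -0.11 and 0.15, and that of the other named peaks 0.01. Subtracting the median of the other named peaks in the same bin left a median of 0.01, with 356 of 688 Zfp peaks (51.7%) above 0. The bin differences ran from -0.05 to 0.15. The largest was in the second weakest bin, which held 41 Zfp peaks. By class the strength-adjusted medians were -0.0038 for KRAB C2H2 peaks and 0.02 for C2H2 peaks without KRAB. Without KO3 the median log2 fold change of the Zfp peaks turned to -0.16 and without WT2 to -0.14, while without KO2 it was 0.22 and without WT3 0.16. The strength-adjusted median moved only between -0.02 and 0.05.

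**Figure D2:**
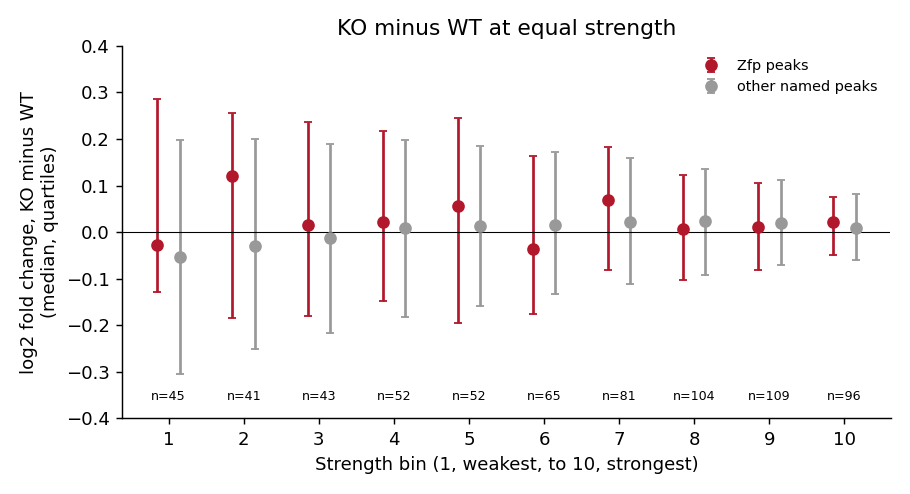
Median log2 fold change (KO minus WT) of Zfp peaks and other named peaks in 10 bins of strength, with bars from the lower to the upper quartile and the number of Zfp peaks under each bin. The quartiles of both sets overlap in every bin, and the spread narrows towards the strong peaks.

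Libraries differed more than groups did. The median of the Zfp start peaks was 7.92, 7.45 and 8.28 in WT1 to WT3 and 7.85, 7.38 and 8.39 in KO1 to KO3. The libraries numbered 2 were thus the lowest of both groups and those numbered 3 the highest. The median of KRAB start peaks minus that of other named start peaks was 0.11, -0.18 and 0.20 in WT and 0.01, -0.17 and 0.19 in KO. For start peaks of C2H2 genes without KRAB it was above 0 in all 6 libraries, from 0.18 in KO2 to 0.47 in KO3. The KRAB start peaks therefore stood above or below other start peaks depending on the library, in WT as in KO.

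**Figure D3:**
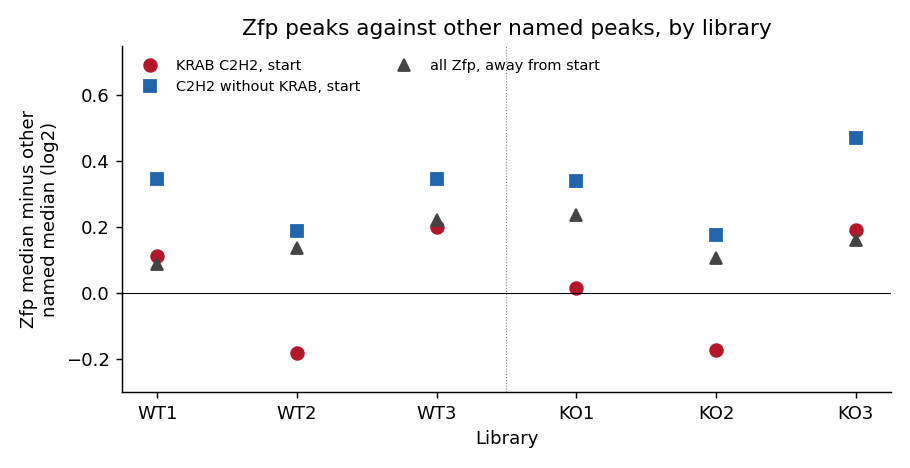
Median of Zfp peaks minus median of other named peaks of the same position (log2) in each library, for KRAB start peaks, start peaks of C2H2 genes without KRAB and Zfp peaks away from a start. WT2 and KO2 have the lowest KRAB values, at -0.18 and -0.17, and both groups span nearly the same range.

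Cluster medians stayed near 0, and no test of a whole cluster was made. The median log2 fold change of the 14 clusters ran from -0.12 in the cluster of Zfp354 genes on chromosome 11 (7 peaks) to 0.12 in that from Zfp560 to Zfp846 on chromosome 9 (7 peaks). In the Zfp712 to Zfp273 cluster the peak medians were 7.71, 6.99 and 8.13 in WT and 7.65, 6.95 and 8.32 in KO, and 10 of 23 peaks were above 0. Some clusters had a larger share above 0, with 11 of 14 from Zfp786 to Zfp467 on chromosome 6, 7 of 8 from Zfp653 to Zfp810 and 6 of 7 from Zfp560 to Zfp846, both on chromosome 9. These 3 were named after their values were seen. Others had fewer, with 3 of 7 in the Zfp354 cluster and 6 of 13 from Zfp787 to Zfp28 on chromosome 7. From Zfp606 to Zfp446 and from Zfp936 to Zfp819 it was 4 of 8 each. All peaks share the same 6 libraries, and how single libraries move these counts was not tested. Over all clusters 116 of 193 peaks (60.1%) were above 0, against 51.3% of the other named peaks. The 3 start peaks with the shared run had overlapping groups and log2 fold changes of 0.02 at Zfp712, -0.05 at Zfp708 and 0.19 at Zfp273. The groups were apart in 4 of the 193 peaks, 2 with KO above WT (1.04%, against 2.70% of all peaks) and 2 with KO below WT (1.04%, against 4.10%).

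**Figure D4:**
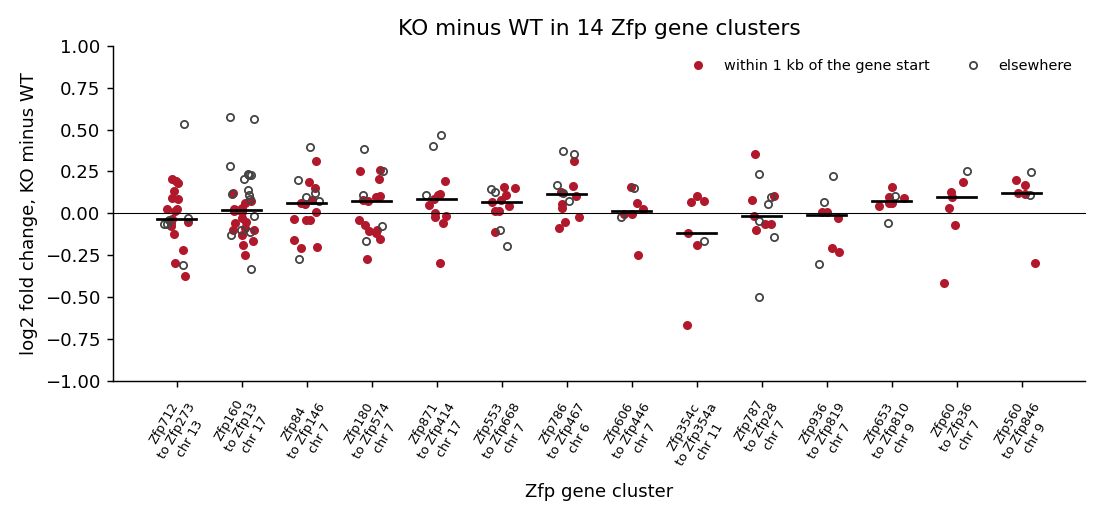
Log2 fold change (KO minus WT) of each peak in the 14 clusters of Zfp genes, with filled points for peaks within 1 kb of the gene start, open points for the others and a bar at the cluster median. Cluster medians lie between -0.12 and 0.12.

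Among peaks lower in KO, the intronic peak of Zfp326 (chr5:105911701-105912450) had the smallest unadjusted p. Zfp326 codes for a nuclear protein that acts in splicing and transcript elongation. Its values were 6.40, 5.88 and 6.29 in WT and 5.52, 5.61 and 5.32 in KO, so that the groups did not overlap, and the log2 fold change was -0.71 ± 0.25 (SE; limma, unadjusted p = 0.0142, adjusted p = 1). The intronic peak of Zfp385b (chr2:77563051-77564250), 1 of 20 at this gene, had 6.65, 6.76 and 6.93 in WT and 6.12, 6.16 and 6.08 in KO. Here too the groups were apart, with a log2 fold change of -0.66 ± 0.25. The other 19 Zfp385b peaks had overlapping groups.

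The intronic peak of Zfp617 (chr8:71926351-71927100), a KRAB gene, had 6.50, 6.88 and 6.59 in WT and 6.37, 6.10 and 5.70 in KO, a log2 fold change of -0.60. Its groups were apart by a narrow margin, and 18.5% of its words recur elsewhere. An intronic peak of Zfp444 was lower by a similar size (-0.50), again with separate groups, as was one of Zfp521 (-0.62), a factor known from blood and nerve precursors. At Zfp354c, the only start peak of this list, the WT values were 7.12, 6.55 and 7.19 and the KO values 6.29, 5.77 and 6.80. These overlapped, since KO3 lay above WT2. Intronic peaks of Zfp462 (-0.60) and Zfp609 (-0.54) overlapped as well, and 32.1% of the words of the Zfp462 peak recur elsewhere.

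Among peaks higher in KO, that near Zfp507 (chr7:35770201-35770500) came first, with 4.14, 4.97 and 4.59 in WT and 5.12, 5.47 and 5.32 in KO. The groups were apart, but the peak held only 9 to 31 reads per library, and the log2 fold change of 0.74 ± 0.32 had an unadjusted p of 0.0367 in limma and an adjusted p of 1. The intronic peak of Zfp445 (chr9:122858551-122859000) had 4.78, 5.05 and 4.64 in WT and 5.65, 4.91 and 6.08 in KO. KO2 lay below WT2 here, so the groups overlapped in spite of a log2 fold change of 0.72. Zfp160 in the chromosome 17 cluster (0.56) and Zfp459 in the chromosome 13 cluster (0.53) had separate groups at intronic peaks. The peaks of Zfp148 (0.60), Zfp251 (0.59), Zfp827 (0.62) and Zfp143 (0.67) had overlapping groups. All 8 were weak, with WT means from 4.41 to 5.85.

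**Figure D5:**
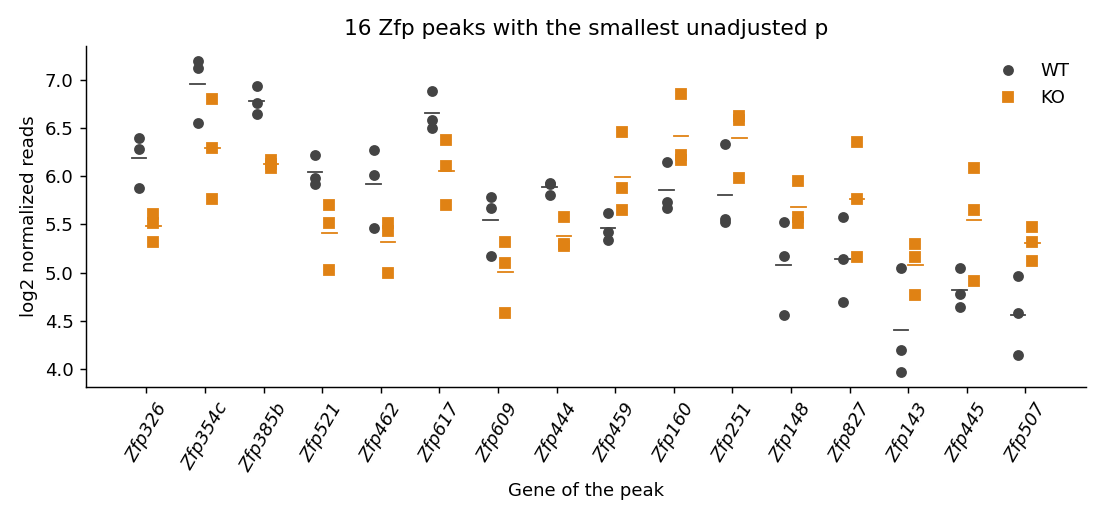
Values (log2 normalized reads) of the 3 WT and 3 KO libraries at the 8 Zfp peaks with the smallest unadjusted p in each direction, with short lines at the group means. The groups do not overlap at 5 of the peaks lower in KO and at 3 of those higher in KO, and no peak passed the adjusted threshold.

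The Zfp genes with known roles were read at their strongest peak. Zfp57 and Zfp445 keep DNA methylation at imprinted genes. The Zfp57 start peak (chr17:37002451-37003200) was weak, with 5.83, 5.63 and 5.88 in WT and 5.77, 5.52 and 6.58 in KO. The Zfp445 start peak (chr9:122865601-122866650) was stronger, with 7.35, 7.20 and 7.57 in WT and 7.37, 7.10 and 8.06 in KO. At both the KO values enclosed the WT values, and KO3 was the highest.

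KRAB genes known for silencing mostly had strong start peaks. Zfp809, which silences retroviruses, had 8.77, 8.23 and 8.94 in WT and 8.62, 8.21 and 9.23 in KO. Zfp568, which represses a placental transcript of Igf2, had 8.03, 7.91 and 8.43 in WT and 7.75, 7.31 and 8.68 in KO. Zfp961 had a WT mean of 8.96 ± 0.35 and a KO mean of 8.70 ± 0.68, and Zfp932 7.82 ± 0.62 and 7.62 ± 0.54. Words that recur elsewhere made up 48.5% of the Zfp932 peak, 11.3% of the Zfp961 peak and 10.6% of the Zfp809 peak, so these values are less certain. Zfp819, known from germ and stem cells, had the weakest start of the list, 6.68 ± 0.35 in WT and 6.44 ± 0.52 in KO. In Zfp708 the strongest peak (chr13:67107301-67109550) lay over an inner coding exon, with 9.23, 8.31 and 9.46 in WT and a KO mean of 8.97 ± 0.82, above its start peak with a WT mean of 8.58. Over the 18 peaks of these 6 genes the median log2 fold change was -0.08. Separate groups were seen in 0 of them, against 6.80% of all peaks, and a list this short can say little.

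Of the stem and germ cell factors, Zfp42 (Rex1), a marker of naive pluripotent cells, and Zfp322a had no peak. Zfp281 had 8.02, 7.40 and 8.38 in WT and 8.22, 7.37 and 8.75 in KO, and Zfp217 a WT mean of 7.80 ± 0.37 and a KO mean of 7.86 ± 0.67. The 9 peaks of these genes showed 0 with separate groups, against 6.80% of all peaks, and they are too few to say more.

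Among the transcription factors, Zfp746 (PARIS) had the strongest peak, with 9.31, 9.08 and 9.79 in WT and 9.44, 8.95 and 9.74 in KO. Zfp143, an activator bound at many promoters, had no peak within 1 kb of its own annotated start under its own name, and its strongest peak lay over a coding exon (8.59 ± 0.13 in WT, 8.64 ± 0.41 in KO). Zfp335 (8.52 ± 0.17 and 8.62 ± 0.07) and Zfp384 (8.58 ± 0.30 and 8.64 ± 0.49) were alike in strength. Zfp148, which binds GC-rich promoters, had 7.02 ± 0.19 and 7.21 ± 0.35 at a peak of whose words 10.7% recur elsewhere. Zfp423, known from fat precursors, had 7.86 ± 0.62 and 7.75 ± 0.48, and Zfp521 only 6.39 ± 0.02 and 6.35 ± 0.09, both measured at peaks whose groups overlapped. The strongest Zfp462 peak was intronic, with 8.90 ± 0.34 and 8.81 ± 0.76. Zfp703 and Zfp750 had no peak under their names. Of the 34 peaks of these genes 2 had KO above WT (5.88%, against 2.70% of all peaks) and 1 had KO below WT (2.94%, against 4.10%). Zfp207, a spindle assembly factor, had only a peak outside the gene, at 5.44 ± 0.35 and 5.44 ± 0.14.

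Genes for the proteins that KRAB domains work through had peaks as well. Trim28, the corepressor that KRAB domains bind, had a WT mean of 9.55 ± 0.52 and a KO mean of 9.64 ± 0.70 at its only peak. Cbx5, an HP1 protein, had 10.14 ± 0.33 and 10.15 ± 0.42. Setdb1, the histone H3 methyltransferase, had its strongest named peak at 6.31 ± 0.46 and 6.23 ± 1.01. The 10 of 11 listed genes with a peak had 29 peaks, of which 0 were called, as were 0% of all peaks. Separate groups were seen in 0 of the 29, against 6.80% of all peaks. The share depends on strength. Among other named peaks 4.16% were separated above and 4.78% below in the weakest bin, but 0.13% and 0.08% in the strongest. Several of the 29 peaks are strong, and the list was not matched for strength, so the 0 can say little. Of the 29 peaks 17 were above 0, with a median log2 fold change of 0.04. Cbx3 had no peak under its name. The strongest of the 4 Smarcad1 peaks was at 8.15 ± 0.73 in WT and 8.10 ± 0.67 in KO.

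The label of the tissue was checked with markers. Peaks were named for 8 of 11 epithelial markers, among them Cdx1, Cdx2, Krt19, Lgr5 and Olfm4, but for none of Vil1, Epcam and Ascl2. The summed linear value of these epithelial peaks was 6917 to 10320 in WT and 6706 to 11612 in KO. Of the immune markers reported, 3 had a peak (Ptprc, Lyz2 and Itgam), with sums of 306 to 388 and 299 to 363, while Cd3e, Cd4, Cd8a and Cd79a had none. All 8 markers of stroma and endothelium had a peak, with sums of 1600 to 1818 and 1577 to 1895. The ranges of WT and KO overlapped for all 3 lists. The part of these cells in the Zfp values was not tested.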

How the data were processed

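The authors trimmed reads with Trim Galore 0.4.1, mapped them to GRCm38 with Bowtie2 2.2.5 and called MACS peaks in SeqMonk. On import to SeqMonk they removed duplicates and applied a cutoff on mapping quality. Which libraries entered the peak calling is not given in the sources used here. The values the authors deposited are log2 normalized read counts per peak, scaled up to the largest library. They gave whole reads (100% of values in each library) when divided by the value of 1 read. A second deposited table holds the authors' own comparison and was not used.

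Because the unit is log2 and not counts, the study's edgeR test was replaced by limma 3.58.1 in R 4.3.3 (lmFit and eBayes with trend, two-sided) on all 123510 peaks and 6 libraries, with Benjamini-Hochberg adjustment over all of them. The fit was also run on simulated data, with changes larger than any seen at a Zfp peak. That run does not tell how often changes of the sizes seen here would be missed. GENCODE vM21 gave positions. The gene identifiers of 686 Zfp peaks matched it, and those of 2 did not. C2H2 fingers and KRAB domains (a profile of 28 residues with a minimum score of 20) were searched in every annotated coding sequence of a gene. The highest count and score were kept. The lowest score called KRAB was 39.63 and the highest not called 18.74. A KRAB domain absent from all these models, or too divergent to reach the minimum score, was missed. Genes without KRAB are thus those in which this search found none. Motifs and GC content were read in the central 300 bases, with RefSeq promoters for comparison.

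The peaks named were the 6 strongest and 3 weakest in WT, the 8 with the smallest unadjusted p in each direction, the 5 genes with the most peaks (with ties) and the strongest peak of each gene of a fixed list of roles. The members and lists were chosen with earlier results of these data known. Reads are not independent molecules, and the depth limits weak peaks most. The alternatives were other scalings, a filter on reads, a pseudocount, voom, a replicate block, leaving out each library, and other bins. One gene of the marker lists is not reported here.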

Additional observations from a re-analysis of the deposited data

How the results depend on the processing

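The count of 0 called Zfp peaks was the same under median centring, quantile normalization, the trimmed mean of M values and voom on the recovered reads. It also held with a mean of at least 20 reads (626 Zfp peaks left), a pseudocount of 5 and an adjusted p below 0.1. Peaks within 1 kb of their gene and every library left out gave 0 as well. Few of all peaks were called in these settings either. The numbers were 2 with median centring, 3 with quantile normalization, 2 with the trimmed mean of M values and 3 with voom. Without WT3 there was 1, and without KO2 there were 30 (0.0243%), the largest share. A count of 0 among 688 Zfp peaks is thus near the share of all peaks. When a library was left out, 1 to 18 Zfp peaks (0.15% to 2.62%) had an unadjusted p below 0.05 in limma, against 0.94% to 4.56% of all peaks. Zfp peaks with separate groups numbered 22, and 48 with quantile normalization, 37 with the trimmed mean of M values and 35 to 88 with a library left out (35 without WT1, 79 without WT2, 58 without WT3, 58 without KO1, 67 without KO2 and 88 without KO3), where separation of 3 against 2 libraries is easier. The share of all peaks then was 11.2% to 20.7%. The median log2 fold change of the Zfp peaks ran from -0.16 to 0.22 with a library left out and was 0.01 to 0.03 under the scalings. The strength-adjusted median stayed between -0.02 and 0.05 in all settings but voom, where it was not computed. The median WT strength was 6.77 to 7.05 under median centring, per kb of width, within 1 kb of the gene and with a WT library left out, and was not computed elsewhere. The named peaks' log2 fold changes kept the direction in all 205 alternatives of the 16 peaks with the smallest p. These peaks were chosen by p on the same libraries, so a kept direction was likely from the start and is no support. The replicate block leaves the log2 fold change as it is. The peaks of Zfp507, Zfp445 and Zfp143 among them did not pass the filter on reads. The other named peaks moved by less than the spread between libraries in all 349.

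WT and KO libraries share the numbers 1 to 3 in their titles. Their deviations from the group means correlated at 0.04, 0.42 and 0.41 over all peaks and at 0.0976, 0.699 and 0.562 over the Zfp peaks for numbers 1, 2 and 3. Between different numbers the correlations ran from -0.46 (WT3 with KO2) to 0.04 (WT1 with KO3) over all peaks. Over the Zfp peaks they ran from -0.64 to 0.32 at the same 2 pairs. Not every same-number pair passed 0.1, and the numbers were not taken as pairs in the main fit. With the replicate block 0 Zfp peaks were called, and 38 (5.52%) had an unadjusted p below 0.05, against 6.87% of all peaks. The block called 0.220% of all peaks where the main fit called 0%, so the calls over all peaks depend on this choice. With the block the median log2 fold change of the Zfp peaks was 0.02. The depth of the shallowest library (KO3) limits the weak intronic peaks most.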
